A study of Mus musculus with 4 samples.

Results

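Expression of 36 interferon-stimulated genes and RNA sensors was examined by RNA-seq in spermatogonial stem cell (SSC) cultures. The genes were chosen by name, as the rows of the deposited count table that carry their symbols, and all 36 were found among its 55421 genes. All 36 also passed the filter on low counts, which kept 20232 genes. The cultures were primary mouse spermatogonia of the CD1 background. The study established them from testes of 6-day-old pups and expanded them on irradiated mouse embryonic fibroblasts (MEF) of outbred CF1 mice, so that each library could hold RNA of both cell types. The Veh group was kept in complete SSC medium, and the NRRA group in a nutrient restriction medium, mostly a balanced salt solution, with retinoic acid (RA) for 48 h. The labels give N2 supplement and 10 ng/ml each of bFGF and GDNF for all cultures. The study's list of media has another level of GDNF, and its restriction medium holds little of the complete medium, so the levels under NRRA are uncertain. Each group had 2 libraries. Replicates of sequencing were independent biological ones by the general statement of the study, while the labels do not name the culture or mice of each library. The p-values measure the spread between these libraries.

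Interferons are secreted proteins that set cells in an antiviral state. Type I interferon binds the receptor subunits IFNAR1 and IFNAR2, the kinases JAK1 and TYK2 are activated, and STAT2 and IRF9 become part of a complex that binds the interferon-stimulated response element (ISRE) in front of its target genes. The RNA sensors RIG-I (Ddx58), MDA5 (Ifih1) and LGP2 (Dhx58) recognise viral or other double-stranded RNA, and the first 2 of them signal through MAVS to the transcription factors IRF3 and IRF7. RIG-I owes its name, retinoic acid-inducible gene I, to its first isolation from RA-treated leukemia cells, and several of these sensors are themselves interferon-induced.

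Promoter windows from RefSeq, running from 250 bases before to 50 bases after a start site, were at hand for 28 of the 36 genes, 32 windows in all. Dhx58, Mx1, Mx2, Oas2, Parp14, Rtp4, Usp18 and Zbp1 had none. The windows were searched on both strands for the ISRE core GAAANNGAAA, which reads TTTCNNTTTC on the other strand, and overlapping matches were each counted. The core was found in 15 of the 28 genes (53.6%), compared with 3.99% of the 27025 genes with a window and 29.5% of 78 other interferon pathway genes. The core TTCNNNGAA, known as GAS, was found in 8 of the 28 genes (28.6%), compared with 9.55% of all genes with a window and 20.5% of the 78 other pathway genes. A match is a description of the letters and does not show that a factor binds there. The 6 windows below belong to genes called in the comparison of NRRA with Veh. The first 4 hold the core and the last 2 do not, and capitals mark the core. Sequences are given 5′ to 3′ on the strand of the gene, in GRCm38.p6.
Oas3: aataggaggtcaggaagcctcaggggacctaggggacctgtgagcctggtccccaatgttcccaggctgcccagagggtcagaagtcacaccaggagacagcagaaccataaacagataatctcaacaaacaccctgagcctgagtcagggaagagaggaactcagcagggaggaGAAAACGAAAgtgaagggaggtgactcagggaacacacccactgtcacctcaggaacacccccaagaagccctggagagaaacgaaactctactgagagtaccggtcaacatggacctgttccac
Ifit1: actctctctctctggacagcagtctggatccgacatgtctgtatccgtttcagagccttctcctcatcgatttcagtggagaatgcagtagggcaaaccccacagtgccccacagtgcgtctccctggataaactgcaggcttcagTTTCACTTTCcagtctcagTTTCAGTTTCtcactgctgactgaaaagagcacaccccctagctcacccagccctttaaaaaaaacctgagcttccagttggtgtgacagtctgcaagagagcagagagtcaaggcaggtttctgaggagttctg
Ifitm2: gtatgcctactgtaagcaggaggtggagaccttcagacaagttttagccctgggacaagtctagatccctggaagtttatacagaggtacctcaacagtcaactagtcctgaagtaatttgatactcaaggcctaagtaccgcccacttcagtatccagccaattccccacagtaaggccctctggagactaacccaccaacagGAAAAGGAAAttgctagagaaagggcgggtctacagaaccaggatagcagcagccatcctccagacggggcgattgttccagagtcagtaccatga
Gbp2: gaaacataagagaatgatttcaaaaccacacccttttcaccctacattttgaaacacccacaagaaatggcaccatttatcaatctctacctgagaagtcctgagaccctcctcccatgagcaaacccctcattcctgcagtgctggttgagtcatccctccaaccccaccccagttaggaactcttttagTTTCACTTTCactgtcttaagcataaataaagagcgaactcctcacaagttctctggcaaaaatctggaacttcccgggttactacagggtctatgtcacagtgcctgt
Ifitm1: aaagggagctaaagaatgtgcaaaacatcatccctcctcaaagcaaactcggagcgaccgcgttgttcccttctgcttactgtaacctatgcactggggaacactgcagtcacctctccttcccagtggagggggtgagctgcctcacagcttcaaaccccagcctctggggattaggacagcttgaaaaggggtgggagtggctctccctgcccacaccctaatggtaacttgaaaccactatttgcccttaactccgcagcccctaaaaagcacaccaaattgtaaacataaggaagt
Irf1: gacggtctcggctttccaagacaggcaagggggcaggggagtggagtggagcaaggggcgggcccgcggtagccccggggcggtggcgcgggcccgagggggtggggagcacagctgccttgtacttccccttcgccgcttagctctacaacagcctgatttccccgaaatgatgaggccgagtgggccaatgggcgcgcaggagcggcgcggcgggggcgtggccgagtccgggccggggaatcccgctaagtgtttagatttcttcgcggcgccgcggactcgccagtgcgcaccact

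The Oas3 window (chr5:120777610-120777909, minus strand) holds the core from 75 to 66 bases before the start. In Ifit1 (chr19:34640639-34640938, plus strand) it lies at -104 to -95 and again at -85 to -76, in Ifitm2 (chr7:140955912-140956211, minus strand) at -46 to -37, and in Gbp2 (chr3:142620413-142620712, plus strand) at -59 to -50. The Ifitm1 window (chr7:140967826-140968125, plus strand) holds neither core, and its start site lies inside the span of the gene in GENCODE. The Irf1 window (chr11:53769764-53770063, plus strand) has no ISRE core but a GAS core at -90 to -82, printed in lower case. ISRE cores overlapped one another in Isg15, Gbp3, Oas1a and Bst2, and an ISRE core overlapped a GAS core in Ifitm3 and Bst2.

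The libraries held between 28022265 and 31604769 counts. A count of 3, taken as the detection floor, corresponded to between 0.0921 and 0.111 CPM, the usual count of a gene relative to the size of its library, and intervals and floors cover counting error only, since PCR copies were not told apart. Levels are given as CPM scaled by TMM factors, and a comparison of levels between genes uses CPM per kilobase of exon. Stra8, an RA-induced gene of meiotic entry, was at 9.85 ± 0.325 CPM in Veh and 1858 ± 7.88 CPM in NRRA (mean ± SD of 2 libraries each), as the treatment labels say. Of 25 fibroblast markers 20 fell and 3 rose in NRRA, and they held 1.19% of the counts in each Veh library against 0.973% and 0.954% in the NRRA libraries. Of 12 germ cell markers 7 rose and 4 fell, from 0.250% and 0.256% of the counts to 0.303% and 0.304%. Over all genes tested, 27.9% rose and 28.4% fell by the same criterion, which is given below. Of 13 leukocyte and macrophage markers 9 could be tested and 2 fell. The leukocyte marker Ptprc had between 6 and 12 counts, whereas the macrophage marker Csf1r had between 564 and 616. Of 8 Sertoli markers, at 0.00172% to 0.00382% of the counts, and 8 Leydig and endothelial markers, at 0.00165% to 0.00249%, 4 and 5 could be tested, of which 1 and 2 fell and 1 of the latter rose. The defining genes Amh, Insl3 and Cdh5 had at most 3, 6 and 66 counts. Other genes of these lists had more, with 735 and 874 Veh counts for Sox9 and 178 and 233 for Wt1 (Sertoli). Star (Leydig) had 189 and 214 Veh counts, Pecam1 (endothelial) 205 and 245, and Kdr (endothelial) 200 and 207.

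Interferon-stimulated genes moved in both directions under NRRA. Of the 36 genes, 13 were called higher and 8 lower in NRRA, where called means an adjusted p under 0.05 in the edgeR quasi-likelihood test, and 15 were not called. These are shares like those of the whole transcriptome, in which 27.9% of the genes tested were called higher, 28.4% lower and 56.4% either way. At least 2-fold differences were called for Oas2, Oas3 and Cmpk2 (higher) and for Ifitm1 and Irf1 (lower), against 6.29% and 7.02% of all genes tested. The median log2 fold change (NRRA over Veh) was 0.23, with 0.00029 over all genes tested, and the median absolute value was 0.42, with 0.33 over all. The former median was 0.047 without Veh replicate 2, 0.16 without NRRA replicate 1 and 0.38 without Veh replicate 1. In bulk RNA, fewer cells of a type and less RNA per cell cannot be told apart, and the part of the shift in fibroblast and germ cell markers in these values was not tested.

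Together the 36 genes took up 0.126% (replicate 1) and 0.112% (replicate 2) of all Veh counts, and 0.124% and 0.110% of all NRRA counts. Per kilobase, the highest level in Veh was that of Ifitm3 (227 CPM per kb), followed by Bst2 (57.3) and Irf1 (42.7). Oas3 (0.213) and Oas2 (0.245) were lowest. The count of genes called higher moved with the library left out: it was 22 without Veh replicate 1, 12 without Veh replicate 2, 9 without NRRA replicate 1 and 16 without NRRA replicate 2. The number called lower was between 8 and 10 in these fits. Over all genes the same 4 fits called 5317, 5287, 4940 and 5056 genes higher. The 13 genes called higher summed to 206 and 171 CPM in Veh and 296 and 261 CPM in NRRA, and the 8 called lower to 527 and 496 CPM in Veh and 309 and 301 CPM in NRRA.

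**Figure D1:**
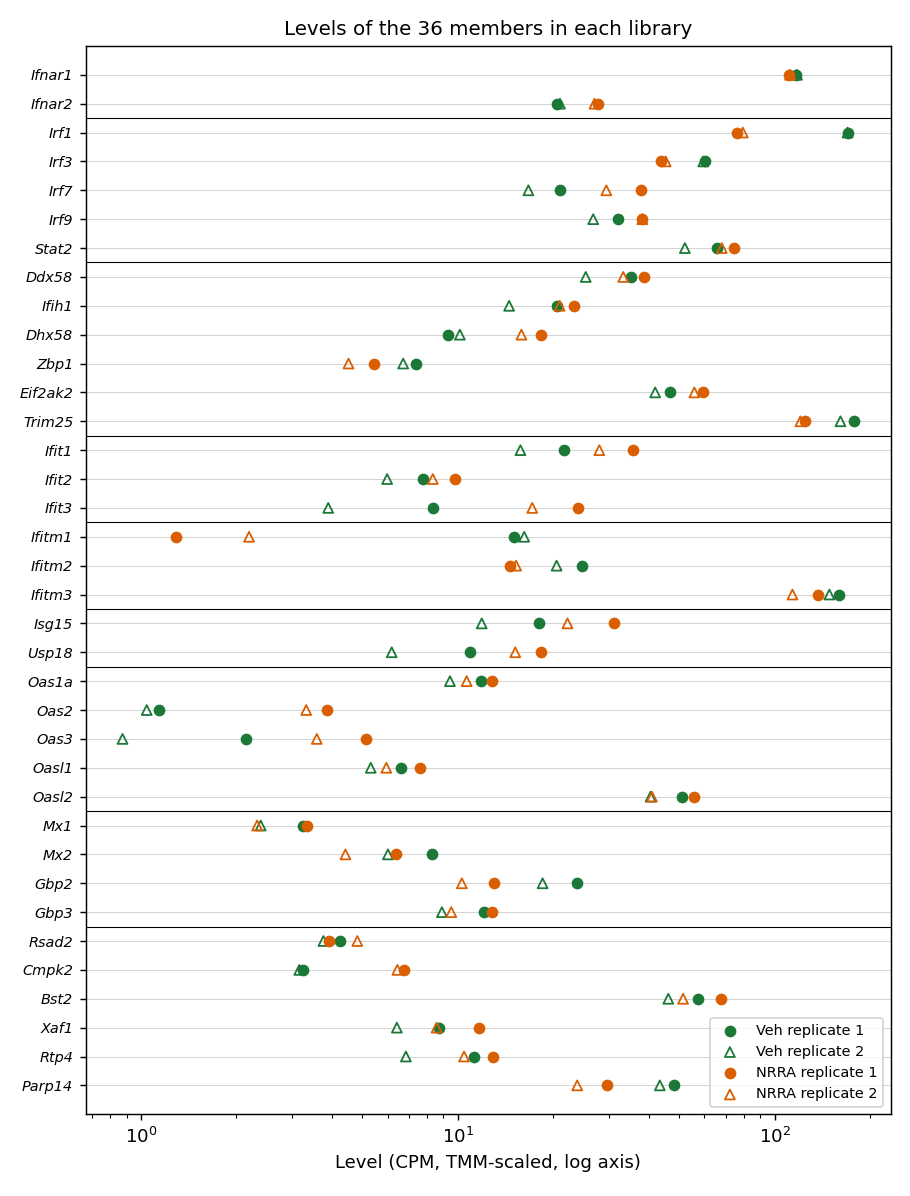
Level of each of the 36 genes in each of the 4 libraries (CPM scaled by TMM, log axis), with genes grouped by role. Each point is 1 library. Ifitm1 lies near 15 to 16 CPM in Veh and under 3 CPM in NRRA, while most genes have their Veh and NRRA points close together.

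Of the 2 receptor subunits and 5 signalling factors, 3 were called higher, 2 lower and 2 were not called, where 27.9% and 28.4% of all genes tested were called higher and lower. Ifnar1 stood at 117 and 118 CPM in Veh and at 111 and 112 CPM in NRRA (log2 fold change -0.07, adjusted p 0.077), and was not called. Ifnar2, the other chain of the type I receptor, had 20.6 and 21 CPM in Veh and 27.8 and 27.0 CPM in NRRA, a rise of 0.40 on the log2 scale (SE 0.07, adjusted p 3.18e-05). Both NRRA libraries lay above both Veh libraries for Ifnar2 and below them for Ifnar1. Of the exonic bases of Ifnar2, 9.46% are shared with Gm21970 on the same strand.

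Irf1, a transcription factor induced by interferon gamma, had the clearest fall of the signalling genes (ENSMUSG00000018899, GRCm38 chr11:53770014-53778374). Its level was 170 CPM in both Veh libraries and 76.2 and 79.4 CPM in the NRRA libraries (170 ± 0.00863 against 77.8 ± 2.23, SD, n = 2 per group). The log2 fold change was -1.13 (SE 0.04, adjusted p 2.28e-19), and no library of a group came near the other group. Irf3, which is activated downstream of the RNA sensors, had 60.1 and 59.6 CPM in Veh and 43.8 and 45.3 CPM in NRRA and fell by 0.42 on the log2 scale (SE 0.05, adjusted p 6.05e-08). Irf7, the interferon-inducible relative of Irf3 that drives interferon alpha genes, moved the other way, from 20.9 and 16.7 CPM to 37.9 and 29.4 CPM (log2 fold change 0.85, SE 0.13, adjusted p 0.000402). Its replicates were apart in each group, yet the lower NRRA library exceeded the higher Veh library.

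Irf9, the DNA-binding part of its complex with STAT2, stood at 31.9 and 26.8 CPM in Veh and 38.0 and 38.2 CPM in NRRA (log2 fold change 0.38, SE 0.07, adjusted p 4.31e-05). Its partner Stat2 was at 65.6 and 52.1 CPM in Veh and at 74.5 and 68.1 CPM in NRRA. The groups did not overlap for Stat2, but the gap between the Veh libraries was larger than that between the nearest libraries of the 2 groups, and it was not called (log2 fold change 0.28, SE 0.11, adjusted p 0.069). With 1 library left out, the Stat2 value ran from 0.12 (without Veh replicate 2) to 0.45 (without Veh replicate 1), and it was called only in the latter case.

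Among the 6 genes for nucleic acid sensors, counting the ligase Trim25, 3 rose, 2 fell and Ddx58 was not called, where 56.4% of all genes tested were called either way. Ddx58, which encodes RIG-I, had 35.2 and 25.3 CPM in Veh and 38.6 and 33.3 CPM in NRRA (log2 fold change 0.26, SE 0.18, adjusted p 0.317). NRRA replicate 2 lay below Veh replicate 1, so the groups overlapped. The difference was called without Veh replicate 1 (0.51), but it was close to 0 without Veh replicate 2 (0.032, adjusted p 0.759) and 0.14 without NRRA replicate 1. Dhx58, which encodes the RIG-I-like receptor LGP2 that lacks the signalling domain, rose from 9.33 and 10.1 CPM to 18.3 and 15.9 CPM (log2 fold change 0.81, SE 0.10, adjusted p 1.54e-07). Ifih1, which encodes MDA5, had 20.5 and 14.5 CPM in Veh and 23.3 and 21 CPM in NRRA. It was called higher (log2 fold change 0.34, SE 0.12, adjusted p 0.018), but not without Veh replicate 2 (0.11) or NRRA replicate 1 (0.26), while without Veh replicate 1 the value was 0.61.

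Eif2ak2, the kinase PKR that halts translation on double-stranded RNA, rose from 46.8 and 42.0 CPM to 59.4 and 55.8 CPM (log2 fold change 0.38, SE 0.06, adjusted p 2.41e-06). Trim25, the ubiquitin ligase that acts with RIG-I, fell from 178 and 161 CPM to 125 and 121 CPM, a log2 fold change of -0.47 (SE 0.04, adjusted p 1.03e-10). Zbp1, a sensor of left-handed nucleic acid, was at 7.37 and 6.72 CPM in Veh and at 5.43 and 4.52 CPM in NRRA (log2 fold change -0.50, SE 0.14, adjusted p 0.00459). The groups were separate for all 3 genes. The Zbp1 call was lost without NRRA replicate 2 (-0.37).

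The IFIT proteins bind viral RNA at the ribosome, and their genes are neighbours on chromosome 19, with gaps of 7.11 and 52.1 kb. Ifit1 rose from 21.6 and 15.8 CPM to 35.6 and 28 CPM (log2 fold change 0.78, SE 0.19, adjusted p 0.023). Ifit2 had 7.78 and 5.98 CPM in Veh and 9.83 and 8.34 CPM in NRRA and was called (0.41, SE 0.14, adjusted p 0.012), but not without Veh replicate 2 (0.22) or NRRA replicate 1 (0.28). Ifit3 (ENSMUSG00000074896, chr19:34583531-34588731) had the highest log2 fold change of the 36 genes, 1.77, yet was not called (SE 0.48, adjusted p 0.079). Its reads numbered 226 and 116 under Veh, then 781 and 517 under NRRA, or 8.33 and 3.90 CPM against 24.0 and 17.2 CPM. The Veh libraries were 2.14-fold apart (95% interval 1.70 to 2.70), and both NRRA libraries were above both of them. Leaving out Veh replicate 1 (2.40) or Veh replicate 2 (1.31) made it a call, while leaving out NRRA replicate 1 (1.5) or NRRA replicate 2 (1.99) did not. DESeq2 called it as well (1.75, adjusted p 0.00584). Ifit3b matches 97.4% of its longest transcript almost exactly, so its counts are uncertain.

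Isg15, a ubiquitin-like protein that is joined to other proteins, had 18.1 and 11.9 CPM in Veh and 31.2 and 22.2 CPM in NRRA (ENSMUSG00000035692, chr4:156199424-156200818). The groups did not overlap, and the gene was not called (log2 fold change 0.84, SE 0.34, adjusted p 0.160). Without Veh replicate 1 (1.17), Veh replicate 2 (0.56) or NRRA replicate 2 (1.06) it was called, but not without NRRA replicate 1 (0.57), and AC151275.1 matches 63.8% of its longest transcript almost exactly. Usp18, the protease that removes ISG15 and dampens signalling at IFNAR2, rose from 11 and 6.18 CPM to 18.3 and 15.2 CPM (ENSMUSG00000030107, chr6:121245906-121270917; log2 fold change 0.98, SE 0.27, adjusted p 0.029). The call was lost without NRRA replicate 1 (0.84) or NRRA replicate 2 (1.11), and without Veh replicate 2 the value fell to 0.61 and was still called.

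Oligoadenylate synthetases make a messenger that activates the ribonuclease RNase L. The 2 highest fold changes among called genes of the set were in this family, in neighbours 3.25 kb apart on chromosome 5. Oas2 (ENSMUSG00000032690, chr5:120730333-120749853) was counted 31 times in each Veh library, and 126 and 100 times under NRRA, or 1.09 ± 0.0715 against 3.60 ± 0.387 CPM (SD, n = 2 per group). Its log2 fold change was 1.72 (SE 0.23, adjusted p 5.67e-07). Oas3 (ENSMUSG00000032661, chr5:120753098-120777661) was counted 58 and 26 times under Veh, and 167 and 108 times under NRRA. The means were 1.51 ± 0.894 and 4.36 ± 1.09 CPM (SD, n = 2 per group), and the difference was 1.56 on the log2 scale (SE 0.27, adjusted p 2.56e-05). Its Veh libraries were 2.45-fold apart (95% interval 1.52 to 4.05), the widest gap of the set, and leaving out Veh replicate 1 or Veh replicate 2 gave a called log2 fold change of 2.32 or 1.03.

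Oas1a, Oasl1 and Oasl2 were not called, at log2 fold changes of 0.15, 0.19 and 0.08. In each of them NRRA replicate 2 lay below Veh replicate 1, so the groups overlapped. Oasl2 was at 51.2 and 40.6 CPM in Veh and 55.7 and 41.0 CPM in NRRA, a difference between replicates that exceeded the difference between groups. Without Veh replicate 1, Oas1a (0.32) and Oasl2 (0.26) were called, whereas without Veh replicate 2 both log2 fold changes were slightly below 0 (-0.010 and -0.079), and Oasl2 was called at 0.28 without NRRA replicate 2 and was -0.16 without NRRA replicate 1. Oas1a was 0.0070 without NRRA replicate 1. Oasl1 ran from 0.0018 without NRRA replicate 1 to 0.35 without Veh replicate 1, with no call. All of the longest Oas1a transcript has near-identical stretches elsewhere, in Oas1g, so its counts are uncertain.

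IFITM proteins block the entry of viruses at the membrane, and Ifitm1 and Ifitm3 are also known from germ cells of the early embryo, where Ifitm3 bears the name Fragilis. No gene of this family rose. Ifitm1 (ENSMUSG00000025491, chr7:140967221-140969825) had the largest fall of the 36, from 409 and 482 counts in Veh to 42 and 66 in NRRA. Its level went from 15.6 ± 0.791 to 1.74 ± 0.638 CPM (SD, n = 2 per group), with a log2 fold change of -3.18 (SE 0.16, adjusted p 3.47e-15). The NRRA libraries were at 1.29 and 2.19 CPM, and the Veh libraries at 15.1 and 16.2 CPM. Near-identical sequence in Gm7676 covers 36.2% of its longest transcript.

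Ifitm2 fell from 24.7 and 20.5 CPM to 14.6 and 15.3 CPM (log2 fold change -0.59, SE 0.09, adjusted p 2.91e-06). It is uncertain, since 66.1% of its longest transcript is near-identical to stretches of Gm11951 and Gm8865 and 40.9% of its exonic bases are shared with Gm45717 on the same strand. Ifitm3, the most abundant gene of the set per kilobase, had 159 and 149 CPM in Veh and 137 and 114 CPM in NRRA. Both NRRA libraries were below both Veh libraries, and the gene was not called (log2 fold change -0.30, SE 0.10, adjusted p 0.082), although it was called with any of the 4 libraries left out (between -0.44 and -0.17). The 3 genes lie in a stretch of chromosome 7 in which the gaps between them are 11.2 and 39.8 kb.

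Of the 4 antiviral GTPases only Gbp2 was called, against 56.4% of all genes tested. Gbp2, a guanylate-binding protein that attacks the membranes around pathogens, fell from 23.9 and 18.5 CPM to 13.0 and 10.3 CPM (log2 fold change -0.86, SE 0.11, adjusted p 5.15e-07), while its neighbour Gbp3, 47.4 kb away, had 12.1 and 8.91 CPM in Veh and 12.9 and 9.53 CPM in NRRA (0.10). Gbp3 was called without Veh replicate 1 (0.34), while it was -0.11 without Veh replicate 2 and -0.13 without NRRA replicate 1. Mx2 came near the threshold (log2 fold change -0.39, SE 0.17, adjusted p 0.0504), with 8.26 and 6.02 CPM in Veh against 6.39 and 4.42 CPM in NRRA. Its groups overlapped, 34.0% of its longest transcript is near-identical to Mx1, and it was called without Veh replicate 2 (-0.61) or NRRA replicate 1 (-0.69), but not without Veh replicate 1 (-0.15) or NRRA replicate 2 (-0.15). Mx1 had 3.24 and 2.39 CPM in Veh and 3.35 and 2.33 CPM in NRRA, a log2 fold change of 0.02 (SE 0.22).

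Rsad2 and Cmpk2 are neighbours on chromosome 12 with a gap of 12.8 kb, and make an antiviral nucleotide in successive steps. Cmpk2 (ENSMUSG00000020638, chr12:26469204-26479837) rose from 3.24 and 3.16 CPM to 6.75 and 6.44 CPM (3.20 ± 0.0604 against 6.6 ± 0.220, SD, n = 2 per group), with a log2 fold change of 1.04 (SE 0.15, adjusted p 2.05e-06). Rsad2, which encodes viperin, had 4.24 and 3.76 CPM in Veh and 3.93 and 4.82 CPM in NRRA and was not called (0.13, SE 0.17, adjusted p 0.553). The Veh libraries lay between the NRRA libraries or below them, so the groups overlapped. The difference between these neighbours was not tested.

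Parp14, an ADP-ribosyltransferase, fell from 48.3 and 43.4 CPM to 29.5 and 23.8 CPM (log2 fold change -0.78, SE 0.08, adjusted p 1.92e-09). Xaf1, a proapoptotic antagonist of XIAP, was at 8.70 and 6.42 CPM in Veh and 11.7 and 8.57 CPM in NRRA. It was called (log2 fold change 0.43, SE 0.15, adjusted p 0.013) although NRRA replicate 2 lay just below Veh replicate 1, and not without Veh replicate 2 (0.22) or NRRA replicate 1 (0.19), with 0.66 without Veh replicate 1. Bst2, which encodes the virus tether tetherin, was not called (0.21, SE 0.23, adjusted p 0.529). Neither was Rtp4, with 11.3 and 6.86 CPM in Veh and 12.9 and 10.5 CPM in NRRA (ENSMUSG00000033355, chr16:23520291-23614222; 0.38, SE 0.20, adjusted p 0.130), of which 13.9% of the exonic bases are shared with Gm45338. Without Veh replicate 1, Bst2 (0.37) and Rtp4 (0.77) were both called, as they were without NRRA replicate 2 (0.40 and 0.52). Both came close to 0 without Veh replicate 2 (0.063 and 0.054), and without NRRA replicate 1 they stood at -0.0048 and 0.22, with no call.

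Whether the 2 groups overlapped gave a similar account. Both NRRA libraries were above both Veh libraries for 15 of the 36 genes, and below them for 10, while the groups overlapped for 11. Over all genes tested these shares were 38.1% above and 38.6% below. The pairs of libraries nonetheless differed in what they showed. The median log2 ratio of the 36 genes was 0.51 between NRRA replicate 1 and Veh replicate 2 (26 higher) and -0.07 between NRRA replicate 2 and Veh replicate 1 (16 higher), with 0.18 and 0.36 for the other pairs. The same medians over all genes tested lay between -0.0060 and 0.0024. With 2 libraries against 2, an exact permutation test of a single value cannot give a two-sided p below 0.333, so none was run.

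The replicates lay further apart for these genes than for the median gene, and they differed mostly in a common direction. Veh replicate 1 was above Veh replicate 2 for 32 of the 36 genes, against 49.8% of all genes tested. NRRA replicate 1 was above NRRA replicate 2 for 29, against 50.5%. Both held for 27 of the 36 genes, against 25.2% of all genes. Veh replicate 2 was the lowest of the 4 libraries for 22 genes, and NRRA replicate 1 was the highest for 23.

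These gaps were often larger than counting error, taken from the exact binomial 95% interval of the split of counts. The Veh replicates were apart by more than that for 24 genes, all with replicate 1 above, where 16.9% of all genes tested were apart (3413 of 20232). Among the 15196 genes with a mean count of at least 50, a level that all 36 genes reached, 2902 were so apart. In NRRA this was 22 genes, 21 of them with replicate 1 above, against 14.2% of all genes tested and 15.6% of those with a mean count of at least 50. Ifitm1 was the exception, at 0.588-fold (95% interval 0.390 to 0.879). In 18 genes the gap exceeded counting error in both groups, against 2.99% of all genes tested and 3.57% of those with a mean count of at least 50. The median gap was 1.25-fold in Veh, with 1.05-fold over genes with a mean count of at least 50, and 1.20-fold in NRRA, with 1.04-fold over those genes.

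Gaps over 1.5-fold between the Veh replicates were seen for 5 genes. They were Oas3 (2.45-fold), Ifit3 (2.14), Usp18 (1.77, 95% interval 1.47 to 2.14), Rtp4 (1.65, 1.37 to 1.97) and Isg15 (1.52, 1.32 to 1.75), all of them with replicate 1 above. Over all genes tested 9.93% were so far apart, and 1.49% of those with a mean count of at least 50. Between the NRRA replicates this was so for Ifitm1 alone, against 9.16% and 1.15%. Replicates were close for both receptor subunits and for Irf1 and Irf3, with ratios of replicate 1 to replicate 2 of 0.996 and 0.993 in Veh and NRRA for Ifnar1, 0.979 and 1.03 for Ifnar2, 1.00 and 0.960 for Irf1, and 1.01 and 0.968 for Irf3. Of the other signalling factors, Irf7 and Stat2 were further apart, with ratios of 1.25 and 1.29 for Irf7 and 1.26 and 1.09 for Stat2. For Irf9 this held in Veh only, with ratios of 1.19 in Veh and 0.994 in NRRA.

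The log2 differences between replicates in Veh and in NRRA had a correlation of 0.60 over the 36 genes, and of 0.02 over the 15196 genes with a mean count of at least 50. This is across genes, which are not independent. The replicates of the groups share a number in their titles, but the sample descriptions number the Veh libraries differently. The labels do not say which Veh library belongs with which NRRA library. The sign of this correlation, and the counts of genes with the same replicate above in both groups, therefore depend on the numbering of the titles. The shares of the counts held by fibroblast markers (1.19% in both Veh libraries, 0.973% and 0.954% in NRRA) and by germ cell markers differed little between the replicates of a group, and leukocyte and macrophage markers held 0.00504% and 0.00540% in Veh and 0.00472% and 0.00458% in NRRA.

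**Figure D2:**
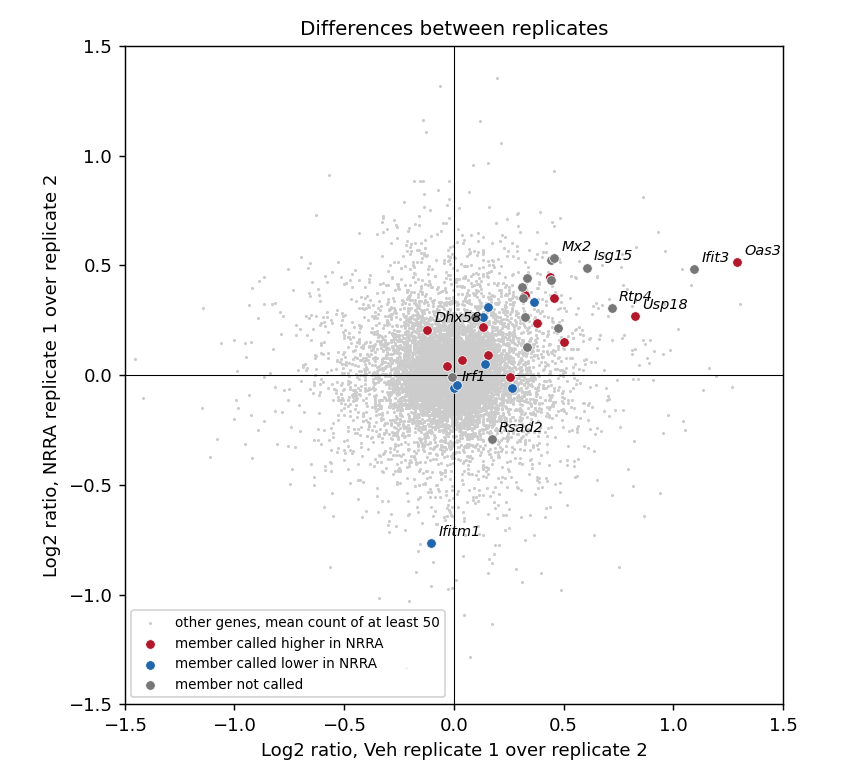
Log2 ratio of replicate 1 to replicate 2 in Veh (horizontal) against the same ratio in NRRA (vertical). Large points are the 36 genes, coloured by their call, and small grey points are the other genes with a mean count of at least 50, of which 5 fall outside the axes. Most of the 36 lie in the upper right part of the plot, with Oas3 and Ifit3 farthest to the right and Ifitm1 at the bottom.

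Genes with an ISRE core in the promoter window were set against those without. Of the 15 genes with the core, 4 were called higher, 2 lower and 9 were not called, with a median log2 fold change of 0.26. Of the 13 without it, 6 were called higher, 4 lower and 3 were not called, with a median of 0.19. Among other genes with a mean count of at least 50, 112 were called higher and 130 lower of 365 with the core, and 3661 and 3611 of 10574 without it. The difference between replicates was set against the core in the same way. Replicate 1 was the higher in both groups for 13 of the 15 genes with the core (86.7%), with median ratios of 1.29 in Veh and 1.20 in NRRA, and for 7 of the 13 without it (53.8%), with medians of 1.10 and 1.04. The 8 genes with no window, whose core status is not known here, had replicate 1 higher in both groups in 7 cases (87.5%), with medians of 1.24 and 1.22. For those other genes the share was 27.7% with the core and 25% without it. No test was made of these differences. The core itself lies in the printed windows of Oas3, Ifit1, Ifitm2 and Gbp2, whose Veh ratios were 2.45, 1.37, 1.20 and 1.29. Their NRRA ratios were 1.43, 1.27, 0.959 and 1.26, so that replicate 1 was the lower for Ifitm2. The printed windows without the core belong to Ifitm1, with ratios of 0.931 in Veh and 0.588 in NRRA, and Irf1, with 1.00 and 0.960.

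The rest of the pathway was followed with 98 further genes, of which 88 could be tested. Of these 27 were called higher and 25 lower, with a median log2 fold change of 0.05, and 36 were not called. Over all genes tested 27.9% were called higher and 28.4% lower, so these counts are near the background. The receptor kinases moved apart, with Jak1 slightly lower (-0.12, adjusted p 0.000309) and Tyk2 higher (0.28, adjusted p 2.63e-06). Socs1, an inhibitor of these kinases, rose (0.30, adjusted p 0.00147). Mavs, the adaptor of the RNA sensors, had 44.3 and 41.8 CPM in Veh and 41.5 and 42.1 CPM in NRRA and was not called (-0.04). Neither Adar, which edits double-stranded RNA (-0.04), nor Cgas, the cytosolic DNA sensor (-0.09, adjusted p 0.399), was called.

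Tmem173, which encodes STING, the adaptor downstream of cGAS, fell from 49.1 and 47.1 CPM to 15.5 and 15.7 CPM (log2 fold change -1.62, SE 0.07, adjusted p 3.99e-17). Of the 8 genes of the list called at least 2-fold lower, the other 3 with the lowest log2 fold changes were Socs3, a feedback inhibitor of STAT3 signalling (-2.04, SE 0.04), Cd274, which encodes the immune checkpoint ligand PD-L1 (-1.89, SE 0.11), and Tor3a (-1.49, SE 0.07). Of the 5 genes called at least 2-fold higher, the 4 with the highest log2 fold changes were Gbp9, a guanylate-binding protein (1.90, SE 0.15), Ifit3b, of which 84.9% is near-identical to Ifit3 (1.66, SE 0.28), Iigp1, an immunity-related GTPase (1.31, SE 0.23), and Cxcl10, a chemokine (1.23, SE 0.23). Over all genes tested, 7.02% were called at least 2-fold lower and 6.29% at least 2-fold higher. Gbp9 was counted 78 and 74 times under Veh, against 348 and 279 times under NRRA. Replicate 1 was above replicate 2 in Veh for 68 of the 88 genes, against 49.8% of all genes tested. In NRRA this was so for 60, against 50.5%.

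**Figure D3:**
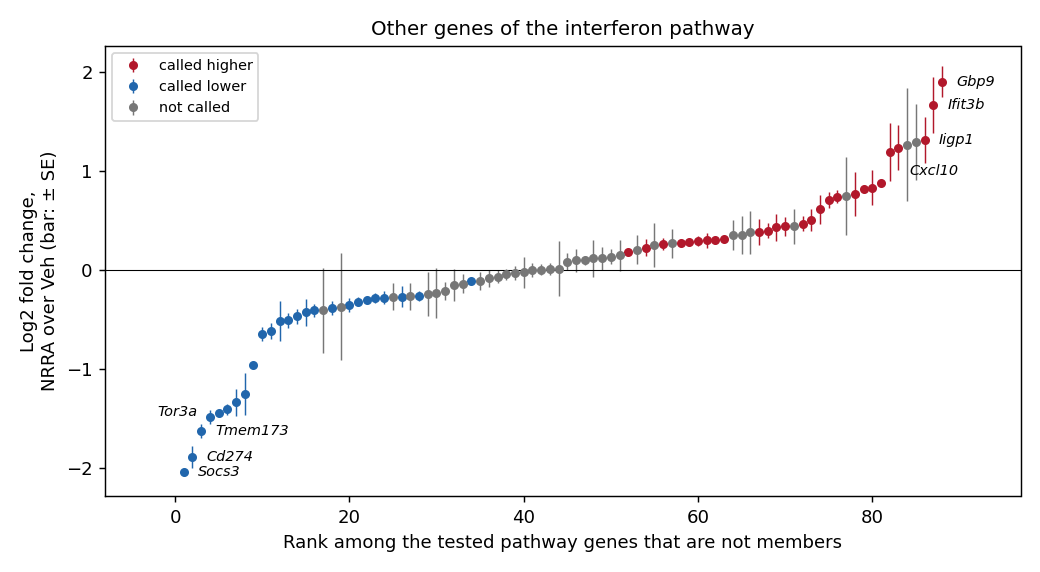
Log2 fold change of NRRA over Veh for the 88 other interferon pathway genes that were tested, in rank order, with SE bars from the edgeR fit. Colour marks the 27 genes called higher, the 25 called lower and the 36 not called, and named points are the called genes with the largest values given in the text.

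Transcripts of the interferons themselves were hardly seen. Of 21 type I, II and III interferon genes in the table, 20 had no count in any library, and the highest count of any was 1, in NRRA replicate 1. None passed the filter, and a count of 0 allows a level of up to 0.0921 to 0.111 CPM at these depths. Near-identical stretches were not searched for in the interferon genes, and reads shared between them may be missing from the counts. With that limit, interferon mRNA was not detected above the floor in either group, and protein was not measured.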

How the data were processed

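The authors deposited raw counts of reads per gene for 4 libraries, 2 Veh and 2 NRRA, as whole numbers with no normalization. The submitters' processing notes name bcl2fastq, STAR 2.6.1c, featureCounts 1.6.4 and mm10. The annotation release and strand setting are not given in the sources used here, so overlapping or near-identical genes may hold reads of one another. Near-identical means 95% identity or more over at least 100 bases. The largest same-strand or near-identical shares are given beside the members. Smaller ones are not, such as 7.59% near-identical sequence in Xaf1, 3.31% in Irf9 and 2.94% in Oas3. Overlap on the opposite strand is not given either, such as 4.44% of exonic bases in Usp18 and 16.8% in Adar. Table columns were matched to samples by the sample descriptions, which number the Veh libraries differently from their titles. There were 0 columns of no sample.

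Genes were filtered with filterByExpr, scaled by TMM and tested with the edgeR 4.0.16 quasi-likelihood F test with robust estimation (R 4.3.3) on the whole table, with Benjamini-Hochberg adjustment over 20232 genes and a threshold of 0.05. SE values come from the F statistic. The study's methods name DESeq2, which was run here as an alternative (1.42.0), together with other scalings, filters, a replicate block and each library left out. The fit was tested on simulated data. Coordinates and exon lengths are of GENCODE M21 (GRCm38), in which 99.5% of the identifiers were found. Every member could be named, with full values for those at least 2-fold and called, those over 1.5-fold apart in Veh, and the receptor, Stat2, Irf and Ddx58 genes. From the other pathway genes the 4 highest and 4 lowest called log2 fold changes with a mean count of at least 50, and 8 fixed genes, were named, 1 of which is not reported here. The members and lists were chosen with earlier results of these data known. Of the list, 1 symbol was matched through an older name (Cgas).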

Additional observations from a re-analysis of the deposited data

How the results depend on the processing

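Under 12 alternatives, 16 of the 21 calls among the members (9 higher, 7 lower) stayed calls in the same direction in each. Usp18 lost its call with a filter of at least 1 CPM in 2 libraries, and Ifih1, Ifit2 and Xaf1 lost theirs with DESeq2, which called Ifit3 (1.75). The members called higher numbered 13 in the reported fit, between 9 and 22 with 1 library left out, and 11 with DESeq2. The members called lower numbered 8, and between 8 and 10 with 1 library left out. Their median log2 fold change of 0.23 ranged from 0.05 to 0.38 with 1 library left out, and was 0.32 with library size only. A lone library in such a fit is assumed to vary like the other group. Without robust estimation 19 members were higher and 9 lower, and Ifit3 and Isg15 were called. The replicate block gave 19 higher and 10 lower members (Stat2, Ddx58, Ifit3, Ifitm3, Isg15, Mx2, Bst2 and Rtp4 joined the calls) and 5772 higher and 5836 lower genes in all. The titles share only a number, and with 2 pairs this does not show that the samples are paired. Genes that changed sign had log2 fold changes between -0.07 (Ifnar1) and 0.21 (Bst2) in the reported fit, and some reached larger values in other fits. With library size only, Ifnar1 had a log2 fold change of 0.015, and all genes called were 6962 higher and 4593 lower, against 5654 and 5752 in the reported fit. With 1 library left out, the log2 fold change ran from -0.010 to 0.32 for Oas1a, from -0.16 to 0.28 for Oasl2, from -0.27 to 0.26 for Mx1, from -0.13 to 0.34 for Gbp3, from -0.0048 to 0.40 for Bst2 and from -0.024 to 0.27 for Rsad2. The negative values arose without Veh replicate 2 (Oas1a, Oasl2 -0.079, Mx1 -0.19, Gbp3 -0.11), without NRRA replicate 1 (Oasl2, Mx1, Gbp3, Bst2) or without NRRA replicate 2 (Rsad2). With 1 library left out, other pathway genes called numbered 25 to 35 higher and 22 to 29 lower, and all genes called 4940 to 5317 higher and 5122 to 5384 lower. The cause was not tested.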
